A study of Mus musculus with 14 samples.

Results

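The genes followed here are 10 components of the circadian clock, measured in mouse brainstem homogenate and in RNA pulled down with the ribosomes of noradrenergic cells: Per1, Per2, Per3, Cry1, Ciart, Clock, Nr1d1, Nr1d2, Dbp and Tef. They were taken by gene symbol from 55422 entries of the count table, and all 10 had enough reads to be tested in every comparison. In short, Per2, Nr1d1 and Tef were lower and Clock was higher in the ribosome-bound RNA than in the homogenate it came from. No clock gene passed the main test between animals given mutant tau and animals given a fluorescent protein. Nor did any other gene: 0 of 19472 passed that test in the ribosome-bound RNA and 0 of 19197 in the homogenate. The first of these counts depends on the tool, since DESeq2 called 411 of the 19472 genes in the ribosome-bound RNA. DESeq2 called 0 clock genes there, but gave 8 of the 10 no adjusted p. Within the homogenates, Clock was lower in the libraries numbered 17 and above than in those numbered up to 11, a call that several other settings did not keep.

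The 14 libraries came from 7 mice, each giving a homogenate (pre-IP) and the immunoprecipitate made from it (IP). All mice were crosses of Th-cre and Slc6a2-eGFP/Rpl10a lines on a C57Bl/6 background. The first transgene places Cre recombinase under the promoter of tyrosine hydroxylase, so Cre is present in any catecholaminergic cell and not in the locus coeruleus alone. The second places a green fluorescent ribosomal protein under control of the noradrenaline transporter gene, so the IP holds RNA on ribosomes of cells that use that gene, together with whatever RNA sticks to the beads. At 2 to 3 months of age the locus coeruleus, a small noradrenergic nucleus of the brainstem, was infused with P364S mutant human tau in animals B, C, L and M, and with EYFP, a yellow fluorescent protein, in animals H, I and K. This gives 4 tau IP, 3 EYFP IP, 4 tau pre-IP and 3 EYFP pre-IP libraries. The number in a library's name divides the animals in a second way: B, C, H and I have numbers up to 11, and K, L and M have numbers from 17, with tau and EYFP animals in both ranges. The labels do not say what the numbers record. The clock hour of tissue collection, the delay after infusion and the vector are not given in the sources used here.

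The mammalian clock is a feedback loop of transcription that runs in almost every cell. CLOCK and its partner BMAL1 (gene Arntl) bind E-box sequences and switch on the Per and Cry genes, whose proteins return to the nucleus and block CLOCK and BMAL1, while CIART is a further repressor of the pair. A second loop uses the nuclear receptors NR1D1 and NR1D2 (REV-ERB), which repress Arntl and Clock at sites that the ROR receptors activate, and DBP and TEF pass the rhythm on through D-box sequences. The level of most of these RNAs in a tissue rises and falls with the time of day, and some, Per1 above all, also respond to glucocorticoids and to neuronal activity.

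Total counts ran from 41843489 to 65664551 per library, so that 3 counts, taken as the limit of detection, equal 0.0457 to 0.0717 CPM (counts scaled to a common library total). This limit covers counting error only, since amplified reads are not independent molecules. Every clock gene lay above it in every library, the lowest value being 1.74 CPM for Per3. Several libraries stood apart from their group. The tau IP of animal B was made from RNA at 0.1 ng per microlitre and had a count for 20813 genes, against 23632 to 25885 in the other IP libraries. The EYFP IP of animal I had an RNA integrity number of 4.2, against 7.7 to 9.0 in the other IP libraries. Both EYFP libraries of animal K held reads of the tau construct, 408 in pre-IP and 398 in IP, where the other EYFP libraries held at most 18. Animal M is labelled female, but the summed level of Uty, Kdm5d, Eif2s3y and Ddx3y, genes of the Y chromosome, came to 10.9 CPM in its pre-IP and 22.1 CPM in its IP library, against at most 0.0769 CPM in other libraries labelled female. The noradrenergic markers Dbh, Th, Slc6a2, Slc18a2 and Phox2a, none of them at 0, summed to 93.8 to 136 CPM in pre-IP, 195 to 249.8 CPM in EYFP IP and 482 to 3674 CPM in tau IP. The labelled cells were thus present in each fraction, and their markers were raised far less in the EYFP than in the tau pulldowns. The libraries are bulk samples, in which fewer cells of a type and less RNA per cell cannot be told apart.

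Sequences are shown for the starts of 6 clock genes, because Nr1d1, Tef and Clock are the genes with both a window and a difference between fractions, Nr1d2 is the close relative that did not follow Nr1d1, and Per1 and Ciart hold the most matches in a window. Each line gives the 250 bases before an annotated start from RefSeq (build GRCm38.p6), read 5′ to 3′ on the gene's strand, with motif matches in capitals.
Nr1d1, chr11:98775378-98775627, minus strand: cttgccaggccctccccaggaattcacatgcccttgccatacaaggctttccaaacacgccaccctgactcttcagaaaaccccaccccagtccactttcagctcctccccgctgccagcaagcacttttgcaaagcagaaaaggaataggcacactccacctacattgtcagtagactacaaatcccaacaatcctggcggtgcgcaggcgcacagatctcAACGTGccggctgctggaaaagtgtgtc
Nr1d2, chr14:18239107-18239356, minus strand: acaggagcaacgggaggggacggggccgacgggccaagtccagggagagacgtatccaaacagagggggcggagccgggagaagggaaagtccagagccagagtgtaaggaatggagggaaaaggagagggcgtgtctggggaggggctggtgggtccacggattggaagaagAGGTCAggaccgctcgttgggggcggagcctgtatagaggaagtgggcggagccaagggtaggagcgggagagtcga
Tef, start 2, chr15:81811164-81811413, plus strand: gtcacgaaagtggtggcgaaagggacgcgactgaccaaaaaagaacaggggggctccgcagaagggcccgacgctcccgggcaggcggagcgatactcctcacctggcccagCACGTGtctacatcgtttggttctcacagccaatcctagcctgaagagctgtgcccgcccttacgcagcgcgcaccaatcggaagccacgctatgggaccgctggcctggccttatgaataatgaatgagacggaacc
Clock, start 1, chr5:76303503-76303752, minus strand: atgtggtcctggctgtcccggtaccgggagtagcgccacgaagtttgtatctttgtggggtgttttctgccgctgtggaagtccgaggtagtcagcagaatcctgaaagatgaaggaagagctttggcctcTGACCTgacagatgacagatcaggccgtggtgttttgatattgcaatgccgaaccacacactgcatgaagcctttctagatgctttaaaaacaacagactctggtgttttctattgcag
Per1, start 1, chr11:69098699-69098948, plus strand: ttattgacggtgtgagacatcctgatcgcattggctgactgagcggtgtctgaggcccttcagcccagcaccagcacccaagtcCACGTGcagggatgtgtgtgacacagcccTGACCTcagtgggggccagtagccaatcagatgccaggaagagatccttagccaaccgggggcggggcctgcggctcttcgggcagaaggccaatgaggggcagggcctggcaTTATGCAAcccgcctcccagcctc
Ciart, chr3:95882229-95882478, minus strand: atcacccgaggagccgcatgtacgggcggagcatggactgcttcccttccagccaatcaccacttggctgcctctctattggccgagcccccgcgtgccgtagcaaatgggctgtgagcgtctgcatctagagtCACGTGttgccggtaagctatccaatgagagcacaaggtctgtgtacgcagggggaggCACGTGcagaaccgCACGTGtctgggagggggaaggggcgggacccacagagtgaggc

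Each window was searched on both strands for the E-box CACGTG, the related E-prime-box CACGTT, the D-box TTATGNAA, the ROR core AGGTCA and the cyclic AMP response element TGACGTCA. The first pair share 5 letters but cannot match at the same bases, and no matches overlapped in the clock genes. RefSeq gave 13 windows for 9 of the clock genes, and Per2 had no entry. An E-box stood in 4 of the 9 genes (Per1, Tef, Ciart and Cry1) and in 5 of the 13 windows, against 6.02% of all 32851 windows of this length. An E-prime-box stood in 2 genes (Nr1d1 and Cry1), against 3.85% of windows. A D-box stood in 2 genes (Per1 and Per3), against 3.07%. A ROR core stood in 3 genes (Per1, Nr1d2 and Clock), against 14% of windows, and TGACGTCA in 0, against 1.55%. Counts of genes and shares of windows are unlike measures, since Per1, Tef and Clock had more than 1 window in which to match. Ciart had 3 E-boxes, with first bases at -116, -58 and -44 from the start, and Tef had 1 before each of its 2 starts, at -127 and -138. Per3 had 2 D-boxes, at -205 and -158, and Per1 had an E-box at -166 and a D-box at -24. The single match of Nr1d1 was an E-prime-box at -28, and that of Nr1d2 a ROR core at -77. Of the genes lower in IP, Nr1d1 and Tef therefore carry matches of the CLOCK and BMAL1 type in these windows. The same type stood in Per1, Ciart and Cry1, which did not pass the test between fractions. A match describes letters and not binding.

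**Figure D1:**
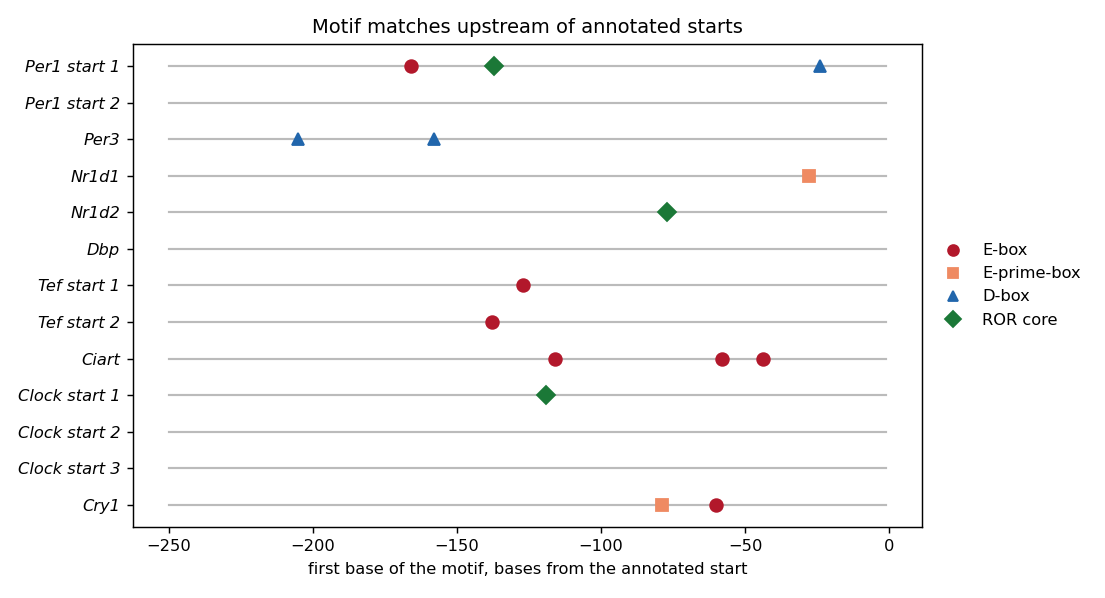
Positions of motif matches in the 250 bases before 13 annotated starts of 9 clock genes; the horizontal axis is the distance of a motif's first base from the start, in bases. Ciart shows 3 E-boxes, Per3 shows 2 D-boxes, and Dbp, start 2 of Per1 and starts 2 and 3 of Clock show no match.

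Levels spanned a wide range in the homogenate. Per kilobase of exon, the mean level over the 7 pre-IP libraries was highest for Tef, at 50.5 ± 4.92 CPM per kilobase (SD, n = 7), and next for Nr1d1, at 26.4 ± 2.43 (SD, n = 7). Nr1d2 (12.2 ± 3.14), Dbp (10.5 ± 1.04), Ciart (7.01 ± 0.580) and Cry1 (6.52 ± 0.675) lay in the middle of the order. The Per genes were low, at 2.40 ± 0.266 for Per1, 1.59 ± 0.426 for Per2 and 1.21 ± 0.306 for Per3, and Clock was lowest at 0.605 ± 0.162 CPM per kilobase (SD, n = 7). The library ranges of neighbours overlapped for Nr1d2 and Dbp, for Ciart and Cry1, for Per1 and Per2 and for Per2 and Per3, so those orders are not resolved. In the IP the order began in the same way, with Tef at 25.2 ± 4.74 and Nr1d1 at 13.1 ± 2.43 CPM per kilobase (SD, n = 7). At its low end Clock, at 1.04 ± 0.167, had a higher mean than Per3 at 0.897 ± 0.405 and Per2 at 0.762 ± 0.264 (SD, n = 7). Every pair of neighbours in the IP order overlapped except Tef and Nr1d1. Some exon bases of Dbp (18.01%, shared with Sphk2), Nr1d1 (8.55%, shared with Thra) and Tef (2.45%, shared with Gm17597) also belong to a gene on the opposite strand. Use of strand in the counting is not stated, so the levels of these genes are uncertain to that extent.

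**Figure D2:**
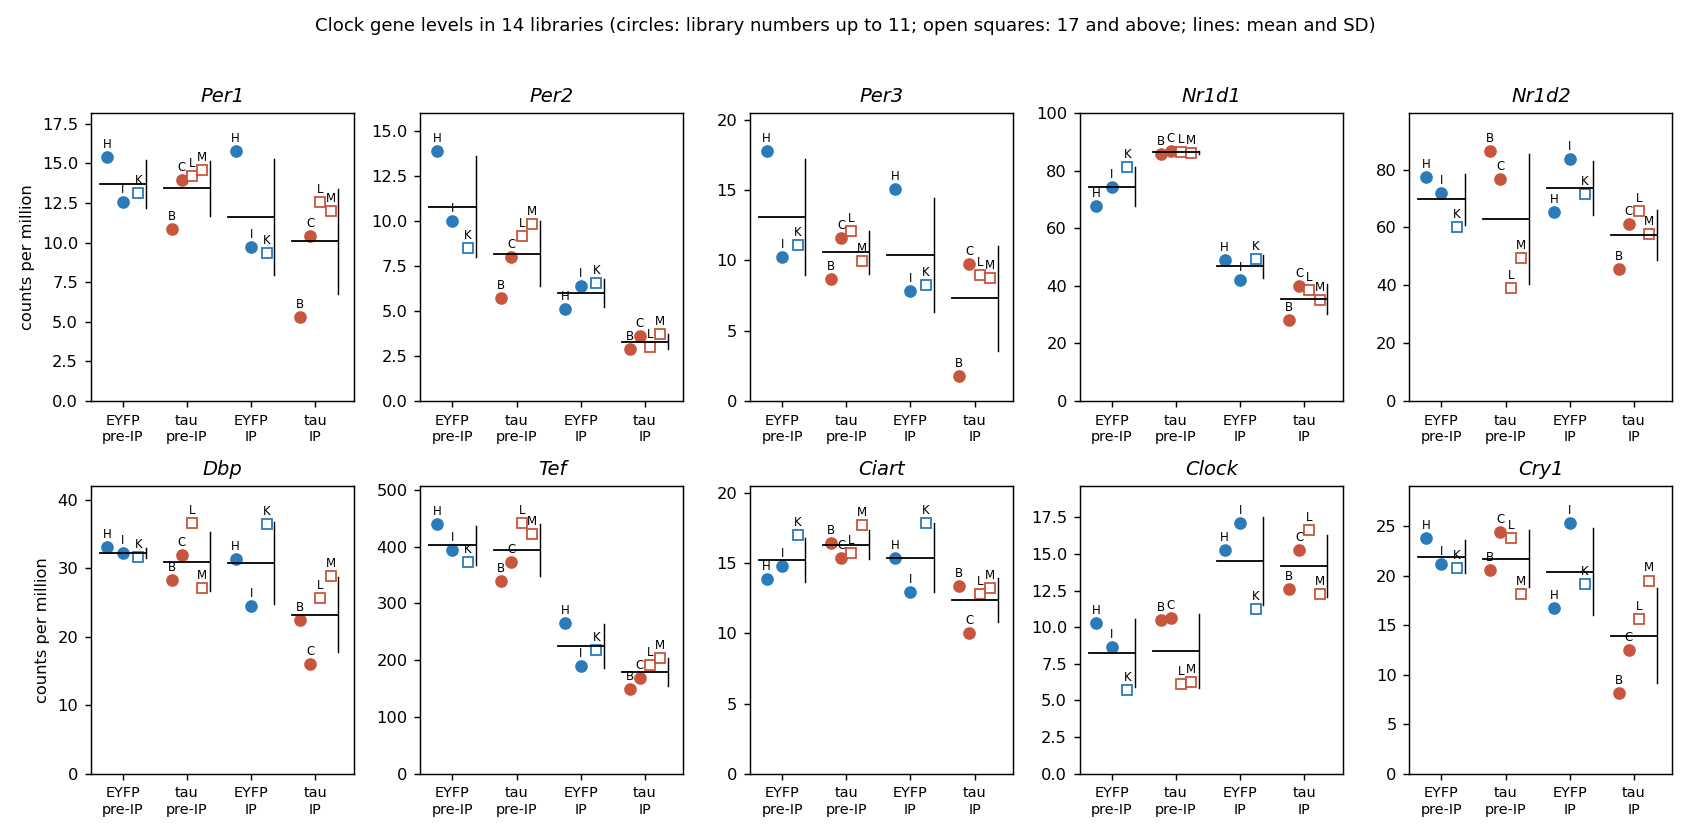
CPM (vertical axis) of each clock gene in the 4 groups (horizontal axis); points are libraries with the animal's letter, circles have library numbers up to 11 and open squares 17 and above, and black lines give the group mean and SD. Nr1d1 and Tef sit lower and Clock sits higher in every IP library than in every pre-IP library.

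The fractions were compared to ask how the clock genes are represented in the ribosome pulldown relative to its own input. Of the 10 clock genes, 4 passed an adjusted p of 0.05, in edgeR's quasi-likelihood test with Benjamini-Hochberg adjustment over 19472 genes, against 29.9% of all genes tested. A single clock gene was higher in IP (15.6% of all genes) and 3 were lower (14.2% of all genes). The groups did not overlap for 3 clock genes, 2 lower and 1 higher, against 9.15% of all genes. The share called among clock genes is near that of all genes, and the results below concern single genes. The median log2 fold change was -0.34 over the 10 clock genes and 0.00 over all genes tested.

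Among the repressors, Per2 (ENSMUSG00000055866.9, GRCm38 chromosome 1, 91415982 to 91459324), a core inhibitor of CLOCK and BMAL1, was lower in IP. Its level ran from 5.71 to 13.9 CPM in pre-IP (median 9.20, n = 7) and from 2.92 to 6.55 CPM in IP (median 3.71, n = 7). The ranges overlapped through the pre-IP library of animal B, yet within each of the 7 animals the IP value was the lower. The fitted log2 fold change was -1.06 (SE 0.16, edgeR adjusted p 0.00024). It ran from -1.19 to -0.99 when each animal was left out, including -1.10 without B and -0.99 without M. Per1 (ENSMUSG00000020893.17, chromosome 11, 69095217 to 69109960), the Per gene that responds most directly to acute signals, had 10.9 to 15.4 CPM in pre-IP and 5.30 to 15.8 CPM in IP. The ranges overlapped widely and the difference did not pass (-0.31, SE 0.16, edgeR adjusted p 0.175). Per3 (ENSMUSG00000028957.12, chromosome 4, 151003652 to 151044665), whose loss disturbs the loop least, was lower in IP in 7 of 7 animals but by a very uneven amount, from -0.18 in M to -2.32 in B on the log2 scale. It did not pass either (-0.42, SE 0.27, edgeR adjusted p 0.259). Cry1 (ENSMUSG00000020038.10, chromosome 10, 85131700 to 85185064), the main repressor paired with PER, was lower in IP in 5 of 7 animals and did not pass (-0.37, SE 0.16, edgeR adjusted p 0.0832). Without animal I, whose IP had the low RNA integrity, its log2 fold change was -0.51 and passed (edgeR adjusted p 0.0331). Ciart (ENSMUSG00000038550.10, chromosome 3, 95878503 to 95882251) had 13.9 to 17.7 CPM in pre-IP and 10.1 to 17.9 CPM in IP, with no difference past the threshold (-0.17, SE 0.13, edgeR adjusted p 0.342).

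Clock (ENSMUSG00000029238.11, chromosome 5, 76209868 to 76304792), the activator, was the clock gene that was higher in IP. Its level ran from 5.71 to 10.6 CPM in pre-IP (median 8.62, n = 7) and from 11.2 to 17.1 CPM in IP (median 15.2, n = 7). Every IP library was above every pre-IP library. The log2 fold change was 0.84 (SE 0.16, edgeR adjusted p 0.00131), and the ratio within an animal ran from 0.26 in B to 1.43 in L on the log2 scale. In EYFP animals alone the size was the same, 0.83, but did not pass (edgeR adjusted p 0.0587).

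The REV-ERB pair parted. Nr1d1 (ENSMUSG00000020889.11, chromosome 11, 98767932 to 98775333) ran from 67.8 to 87.0 CPM in pre-IP (median 85.9, n = 7) and from 28.2 to 49.3 CPM in IP (median 39.8, n = 7). No IP library reached the lowest pre-IP library. The log2 fold change was -0.99 (SE 0.11, edgeR adjusted p 3.76e-05). Nr1d2 (ENSMUSG00000021775.11, chromosome 14, 18204054 to 18239127), which acts on the same sites, ran from 39.2 to 86.6 CPM in pre-IP (median 71.8, n = 7) and from 45.5 to 83.6 CPM in IP (median 65.3, n = 7). The ranges coincided almost wholly, and the log2 fold change was 0.00 (SE 0.15, edgeR adjusted p 0.992). Within animals, 3 pairs of relatives chosen after their values were seen were set against each other by two-sided exact sign-flip tests over 128 sign sets. The log2 ratio of IP to pre-IP was lower for Nr1d1 than for Nr1d2 in 7 of 7 animals, by -1.02 ± 0.555 on average (SD, n = 7; exact p 0.0156, the smallest the test can give, adjusted over the 3 pairs 0.0469). The mean difference of Per2 from Per1 was -0.70 ± 0.682, negative in 5 of 7 animals (SD, n = 7; exact p 0.0625, adjusted 0.0938). That of Per2 from Per3 was -0.49 ± 0.955, negative in 5 of 7 (SD, n = 7; exact p 0.25, adjusted 0.25). Because the pairs were picked from these same values, the sign-flip p-values cannot serve as support for a difference. The adjustment covers the chosen pairs only, and other relatives such as Tef and Dbp were not among them.

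Of the output factors, Tef (ENSMUSG00000022389.15, chromosome 15, 81802421 to 81826863), the most abundant clock gene, was lower in IP. It ran from 339.6 to 441 CPM in pre-IP (median 393, n = 7) and from 149 to 266 CPM in IP (median 192, n = 7). The fractions did not overlap. The log2 fold change was -0.97 (SE 0.10, edgeR adjusted p 3.11e-05), and the ratio within animals was the most even of the clock genes, -1.02 ± 0.194 (SD, n = 7), from -1.20 in L to -0.73 in H. Dbp (ENSMUSG00000059824.12, chromosome 7, 45705088 to 45710203), its close relative and a classic E-box target, had 27.1 to 36.5 CPM in pre-IP and 16.0 to 36.5 CPM in IP. It did not pass (-0.22, SE 0.13, edgeR adjusted p 0.241) and was lower in IP in 5 of 7 animals.

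**Figure D3:**
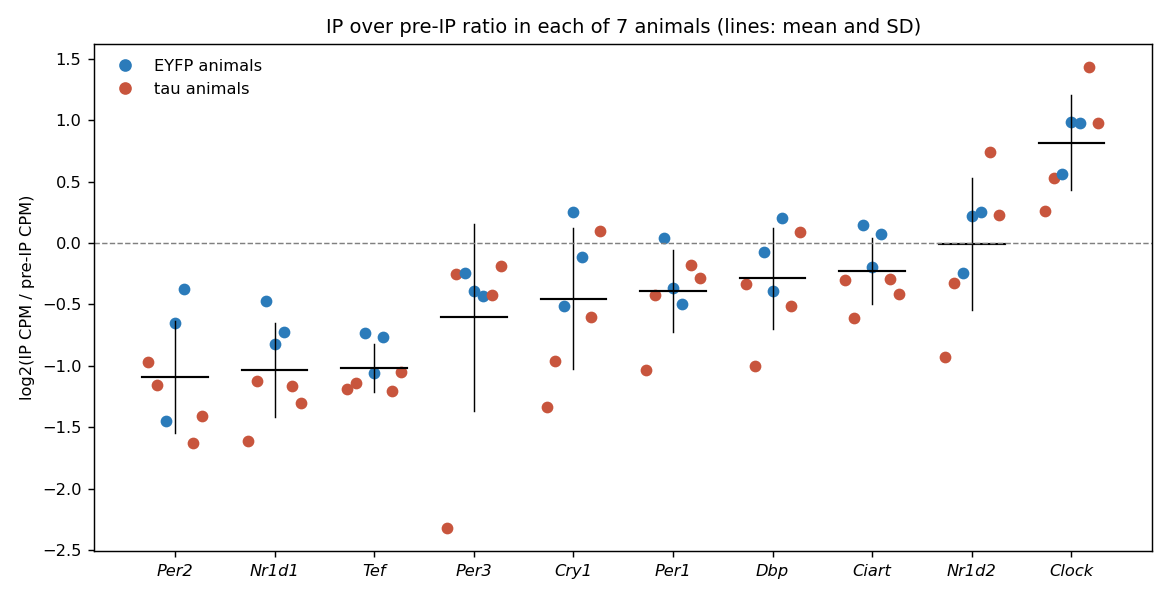
Log2 ratio of IP to pre-IP CPM (vertical axis) in each of 7 animals for the clock genes, ordered by mean; blue points are EYFP and red points tau animals, and black lines give mean and SD. Tef lies between -1.20 and -0.73 in all animals, Clock lies above 0 in all, and Per3 has 1 point far below the rest, animal B at -2.32.

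The lower values held in both treatments fitted alone. In tau animals the log2 fold changes were -1.26 for Per2, -1.24 for Nr1d1 and -1.09 for Tef, and in EYFP animals they were -0.84, -0.68 and -0.84, all past the threshold (edgeR adjusted p 0.00332 to 0.0447). Other genes of the loop were also split: of 10 tested (Arntl, Npas2, Cry2, Rora, Rorb, Bhlhe40, Bhlhe41, Hlf, Nfil3 and Timeless), 4 were called lower and 1 higher in IP, with a median of -0.27. Of 8 genes that act on the stability of clock proteins (kinases, ubiquitin ligases and the protease Usp2), 4 were called lower and 2 higher, with a median of -0.15. Of 8 outputs of the clock such as Wee1 and Nampt, 1 was called lower and 2 higher, with a median of 0.27. Cell type markers moved between the same fractions. All 5 noradrenergic markers were called higher in IP, with a median of 3.86 over both treatments together. The treatments differed widely in this. The markers' sum was 93.8 to 136 CPM in EYFP pre-IP and 195 to 249.8 CPM in EYFP IP. In tau animals it was 102 to 121 CPM in pre-IP and 482 to 3674 CPM in IP. Of 5 astrocyte, 5 oligodendrocyte and 5 microglia markers, 1, 1 and 3 were called lower and 0 higher, with medians of -0.30, -0.45 and -0.57. Of 6 markers of other neurons 1 was called lower (median 0.11). Of 4 endothelial and 4 choroid plexus markers edgeR's quasi-likelihood test called 0 and 0, with 1 and 0 at an unadjusted p under 0.05, DESeq2 called 0 and 0 and limma voom 1 and 0 (medians -0.13 and -0.16). Library measures differed between the fractions as well. The RNA concentration was 11.4 to 29.9 ng per microlitre in pre-IP and 0.1 to 2.8 in IP, without overlap. The GC content of the reads was 52.08 to 52.74 percent in pre-IP and 51.56 to 52.33 percent in IP. The part of cell types, RNA amount or GC content in the clock gene differences was not tested.

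The library-number ranges were compared in pre-IP with treatment in the model, to see whether the clock genes differ between lower and higher numbers. Clock alone passed, 1 of 10, against 2.98% of 19877 genes. At an unadjusted p under 0.05 there were 2 of 10 (Clock and Nr1d2), against 22.2% of all genes, and the groups did not overlap for the same pair, 2 of 10 against 20.7%. Counts of 1 or 2 among 10 genes are read as values of those genes and not of the set, and the median was 0.11 over the clock genes and 0.00 over all.

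Clock in pre-IP had 10.5 CPM in B, 10.6 in C, 10.3 in H and 8.62 in I, the animals with numbers up to 11. It had 5.71 CPM in K, 6.16 in L and 6.24 in M, with numbers from 17. All 3 higher-numbered libraries were below all 4 lower-numbered ones. The only EYFP animal among the 3 was K, whose pre-IP library held 408 reads of the tau construct. The log2 fold change of Clock was -0.69 (SE 0.14, edgeR adjusted p 0.033). Its size was stable, from -0.76 to -0.66 over 14 other settings, but its call was not. It was lost with the labelled sex as covariate (edgeR adjusted p 0.052), in tau animals alone (0.0923) and without B (0.109), C (0.0875), H (0.0616), I (0.0755), K (0.0698) or M (0.0898).

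Nr1d2 in pre-IP had 86.6 CPM in B, 76.8 in C, 77.3 in H and 71.8 in I, against 60.2 in K, 39.2 in L and 49.3 in M. The 2 ranges again did not overlap. The log2 fold change was -0.58 (SE 0.15, edgeR adjusted p 0.0599), just short of the threshold. It passed in 5 other settings, among them DESeq2 (DESeq2 adjusted p 0.00858), voom (limma adjusted p 0.0199) and the fit without K (-0.85, edgeR adjusted p 0.0388).

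The other 8 clock genes showed log2 fold changes from -0.05 (Cry1) to 0.20 (Ciart), none past the threshold, with 0.16 for Per1, Per2 and Tef, 0.14 for Nr1d1, 0.09 for Dbp and 0.00 for Per3 (SE 0.11 to 0.21, edgeR adjusted p 0.407 to 0.996). Nr1d1, the other REV-ERB gene, had 67.8 to 87.0 CPM in the lower-numbered and 81.3 to 86.5 CPM in the higher-numbered pre-IP libraries, and the ranges overlapped. The difference between Nr1d1 and Nr1d2 was not tested here.

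The other loop genes held 4 calls among 10, against 2.98% of all genes. All 4 were lower in the higher-numbered libraries, and the median of the 10 was -0.02. The list was chosen with earlier results of these data known, so its count is read as values of single genes. Rora, an activator at the sites that REV-ERB represses, had 68.2 to 81.9 CPM in the lower-numbered and 25.96 to 42.4 CPM in the higher-numbered pre-IP libraries (log2 difference -1.26, SE 0.14, edgeR adjusted p 0.00595). Rorb, its relative, had 17.6 to 20.6 and 8.46 to 11.3 CPM (-0.94, SE 0.13, edgeR adjusted p 0.0125). Arntl, the partner of Clock, listed as Bmal1 in the deposited gene table, had 25.3 to 26.8 and 15.9 to 17.97 CPM (-0.57, SE 0.11, edgeR adjusted p 0.0307). Hlf, a relative of Dbp and Tef, had 86.3 to 99.6 and 60.1 to 69.9 CPM (-0.49, SE 0.10, edgeR adjusted p 0.0347). None of these 4 overlapped between ranges, and 20.7% of all genes did not overlap either. Over 14 other settings the call held in 12 for Rora, 11 for Rorb, 6 for Arntl and 6 for Hlf, and it was lost in tau animals alone for all 4. Clock, Arntl and Hlf were called lower under the same 6 other settings. The Per genes, Cry1, Ciart, Dbp, Tef and Nr1d1 were not called under any.

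Among lists of genes for inputs to the clock and its outputs, 0 of 47 genes passed in edgeR's quasi-likelihood test, with 11 at an unadjusted p under 0.05, and DESeq2 and limma voom called 6 each. The smallest p in each belonged to Csnk1d, a kinase of PER proteins (0.40, unadjusted p 0.00367, edgeR adjusted p 0.0674), Nampt, an output in NAD synthesis (-0.52, unadjusted p 0.00221, edgeR adjusted p 0.0577), Arc, an immediate early gene (0.46, unadjusted p 0.00362, edgeR adjusted p 0.0672), Arrdc2, induced by glucocorticoids (0.55, unadjusted p 0.00388, edgeR adjusted p 0.0697), and Hsph1, a heat shock gene (-0.33, unadjusted p 0.0147, edgeR adjusted p 0.121). Medians were 0.04 for 8 genes of clock protein turnover, -0.25 for 8 outputs, 0.04 for 13 immediate early, 0.18 for 9 glucocorticoid-induced and 0.07 for 9 temperature-responsive genes.

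Other measures moved with the ranges in pre-IP. The RNA integrity number was 7.7 to 8.0 in the lower-numbered and 8.1 to 8.3 in the higher-numbered libraries, the RNA concentration 16.0 to 29.9 and 11.4 to 13.9 ng per microlitre, and the GC content of the reads 52.08 to 52.14 and 52.56 to 52.74 percent. None of these overlapped. Dbh (0.96, edgeR adjusted p 0.0363) and Slc6a2 (1.02, edgeR adjusted p 0.0389) were called higher, 2 of 5 noradrenergic markers, whose sum was 93.8 to 121 CPM in the lower-numbered and 102 to 136 CPM in the higher-numbered libraries. Mag, 1 of 5 oligodendrocyte markers, was called higher (0.66, edgeR adjusted p 0.0473), with sums of 8554 to 10899.8 and 8822 to 11997 CPM. Gad2, 1 of 6 markers of other neurons, was called lower (-0.51, edgeR adjusted p 0.0384), with sums of 666 to 734 and 588 to 738 CPM. Of 5 astrocyte markers edgeR's quasi-likelihood test called 0, with 1 at an unadjusted p under 0.05, and DESeq2 and limma voom called 1 each (sums of 715 to 930.3 and 695 to 1097 CPM). Of 5 microglia markers edgeR's quasi-likelihood test called 0, with 2 at an unadjusted p under 0.05, DESeq2 called 1 and limma voom 2 (sums of 115 to 132 and 121 to 137 CPM). The 4 endothelial markers had 0 calls in edgeR's quasi-likelihood test, DESeq2 and limma voom, with 0, 0 and 1 at an unadjusted p under 0.05 (sums of 21.4 to 25.2 and 22.6 to 24.7 CPM). The choroid plexus markers had negative values in 4 of 4, with 0 called and 0 at an unadjusted p under 0.05 in edgeR's quasi-likelihood test, 0 called by DESeq2 and 3 by limma voom, and sums of 793 to 1649 CPM in the lower-numbered and 32.98 to 1331 CPM in the higher-numbered libraries. Over all 34 markers edgeR's quasi-likelihood test called 4, DESeq2 8 and limma voom 13. No marker of these lists was at 0, and the part of RNA quality, GC content or cell types in the differences was not tested.

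In IP the same contrast gave 0 of 10 in edgeR's quasi-likelihood test, against 0% of 20573 genes. At an unadjusted p under 0.05 there were 0 of 10, against 6.99% of genes, and 0 of 10 did not overlap, against 4.47%. The counts called by DESeq2 and limma voom were 0 and 0, with 0 and 1 at an unadjusted p under 0.05. Clock had 12.6 CPM in B, 15.3 in C, 15.2 in H and 17.1 in I, against 11.2 in K, 16.6 in L and 12.3 in M, so its ranges overlapped (log2 fold change -0.20, SE 0.21, edgeR adjusted p 0.858). Nr1d2 changed by 0.08 (SE 0.16, edgeR adjusted p 0.926). Dbp had the smallest p of the clock genes (0.42, SE 0.21, unadjusted p 0.0755, edgeR adjusted p 0.734). Whether the difference of Clock between ranges differs between the fractions was not tested. Of the other loop genes, Rora had the smallest p (-0.90, SE 0.27, unadjusted p 0.00836, edgeR adjusted p 0.676). Outside the loop the smallest p of each list belonged to Fbxw11 (0.43), Vip (1.07), Arrdc2 (1.16), Arc (0.40) and Hspa1a (-0.71), with edgeR adjusted p from 0.71 to 0.731.

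**Figure D4:**
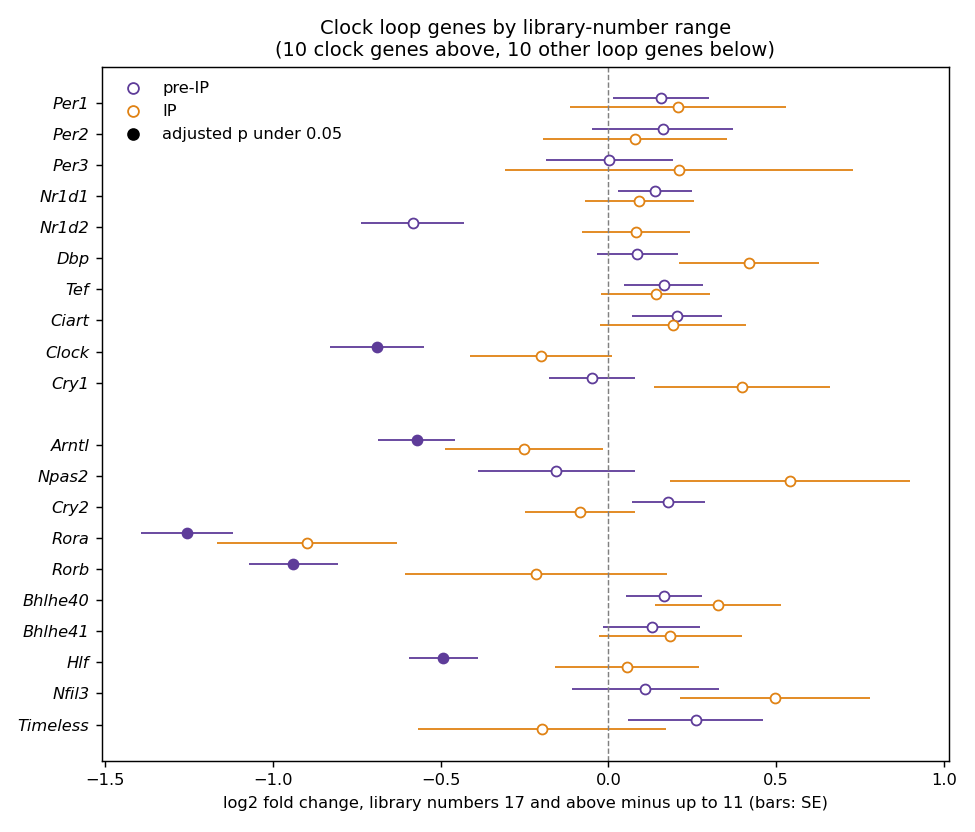
Log2 fold change between library-number ranges (horizontal axis, 17 and above minus up to 11) with SE for the 10 clock genes and 10 other loop genes, in pre-IP (purple) and IP (orange); filled points passed an edgeR adjusted p of 0.05. Clock, Arntl, Rora, Rorb and Hlf are filled in pre-IP, and no point is filled in IP.

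The comparison that the study names is tau against EYFP in IP. Of the 10 clock genes 0 passed in edgeR's quasi-likelihood test, against 0% of 19472 genes, and limma voom called 0. DESeq2 called 0 of the 2 to which it gave an adjusted p, against 2.11% of all genes. At an unadjusted p under 0.05 there was 1 of 10 in each of the 3 tools, against 12% of all genes in edgeR, and 2 of 10 did not overlap, against 15.6%. The median was -0.28 over the clock genes, 9 of 10 of them with negative values, and -0.08 over all genes.

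Per2 was the gene at an unadjusted p under 0.05. Its level in tau IP was 2.92 CPM in B, 3.61 in C, 2.98 in L and 3.71 in M, and in EYFP IP 5.10 in H, 6.37 in I and 6.55 in K. The groups did not overlap, but the log2 fold change of -0.76 (SE 0.25, unadjusted p 0.0141) did not pass over all genes (edgeR adjusted p 0.319). It ran from -0.89 to -0.69 when each animal was left out, with edgeR adjusted p from 0.214 to 0.636. Nr1d1 also did not overlap, at 28.2 CPM in B, 39.8 in C, 38.5 in L and 35.0 in M against 48.9 in H, 42.2 in I and 49.3 in K. Its log2 fold change was -0.30 (SE 0.16, edgeR adjusted p 0.468). The remaining values were -0.46 for Cry1, -0.43 for Per3, -0.30 for Dbp, -0.25 for Nr1d2, -0.23 for Tef, -0.20 for Ciart, -0.11 for Per1 and 0.08 for Clock (SE 0.15 to 0.48, edgeR adjusted p 0.529 to 0.905). The low tau IP values of Per1 (5.30 CPM), Per3 (1.74 CPM), Cry1 (8.15 CPM) and Nr1d2 (45.5 CPM) were all those of animal B. Without B, the log2 fold change of Per3 was -0.11 and that of Per1 was 0.07.

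Marker levels differed between the same libraries. The noradrenergic markers were higher in tau IP in 5 of 5, with a median log2 fold change of 3.91. All 5 astrocyte, 5 oligodendrocyte, 5 microglia, 6 other-neuron, 4 endothelial and 4 choroid plexus markers had negative values, with medians of -0.52, -0.53, -0.68, -0.53, -0.29 and -1.01. Of all 34 markers 0 passed in edgeR's quasi-likelihood test, with 14 at an unadjusted p under 0.05, while DESeq2 called 4, all noradrenergic, and limma voom 0. The sums were 345 to 763 CPM in tau and 679 to 982 CPM in EYFP for astrocytes, 59.9 to 92.2 and 102 to 123 CPM for microglia, and 318 to 568 and 752 to 795 CPM for other neurons. The part of these markers' cells in the values of Per2 and Nr1d1 was not tested.

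In pre-IP, tau against EYFP gave 0 of 10 clock genes in edgeR's quasi-likelihood test, against 0% of 19197 genes, and 0 of 10 at an unadjusted p under 0.05, against 2.84%. DESeq2 and limma voom called 0, with 0 and 1 at an unadjusted p under 0.05. Nr1d1 was the 1 of 10 that did not overlap, against 3.12% of genes, and here it was the tau group that was higher: 85.9 CPM in B, 87.0 in C, 86.5 in L and 86.3 in M, against 67.8 in H, 74.4 in I and 81.3 in K (log2 fold change 0.22, SE 0.13, edgeR adjusted p 1.00). The tau values had an SD of 0.458 CPM (n = 4) and the EYFP values one of 6.75 CPM (n = 3). Per2 had 5.71 CPM in B, 8.04 in C, 9.20 in L and 9.85 in M, against 13.9 in H, 10.01 in I and 8.52 in K, and overlapped (-0.37, SE 0.22, edgeR adjusted p 1.00). The other 8 lay between -0.27 (Per3) and 0.11 (Ciart).

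The interaction of treatment and fraction tests whether the tau difference itself differs between IP and pre-IP. Of the 10 clock genes 0 passed in edgeR's quasi-likelihood test, against 0% of 20495 genes, and 1 had an unadjusted p under 0.05, against 5.97%. DESeq2 and limma voom called 0, with 1 each at an unadjusted p under 0.05. That gene in edgeR was Nr1d1, lower in tau IP and higher in tau pre-IP, at -0.52 (SE 0.19, unadjusted p 0.0128, edgeR adjusted p 0.726). The next largest were Cry1 at -0.46 (SE 0.30, edgeR adjusted p 0.843) and Per2 at -0.39 (SE 0.32, edgeR adjusted p 0.873). The other 7 lay between -0.31 (Ciart) and 0.02 (Clock). The SEs of the 10 values ran from 0.19 to 0.55.

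**Figure D5:**
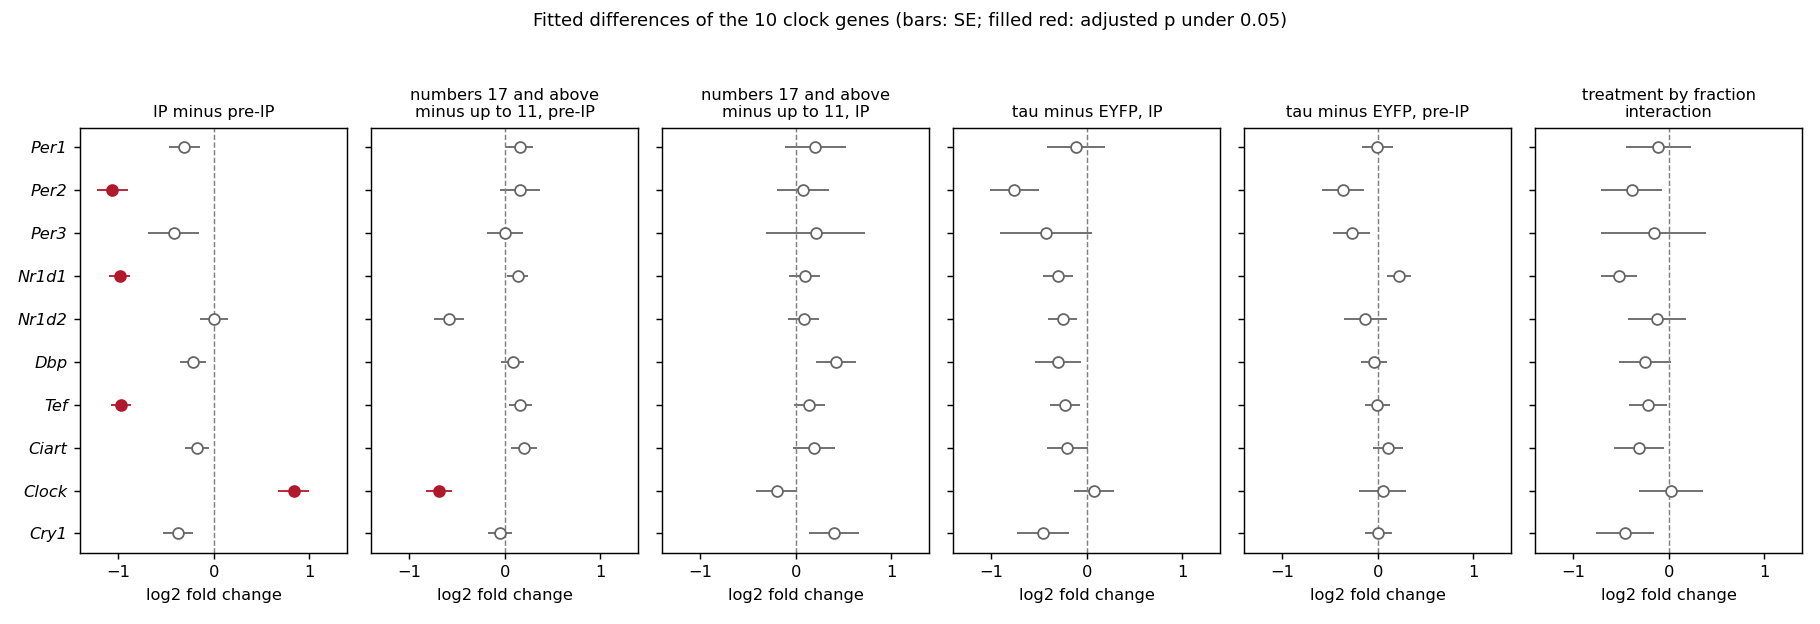
Fitted log2 fold changes (horizontal axes) with SE for the 10 clock genes in 6 comparisons; filled red points passed an edgeR adjusted p of 0.05. Filled points are Per2, Nr1d1, Tef and Clock between fractions and Clock between library-number ranges in pre-IP.

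The clock genes did not vary as a unit over the 7 homogenates. Their mean profile (log2 CPM, each gene centred) ran from -0.08 in B to 0.20 in H. Pearson's r of single clock genes to that mean, of which each is a part, ran from -0.87 (Ciart) and -0.70 (Nr1d1) to 0.88 (Per3). Over the same 7 libraries the 5 genes most like the mean among 19197 were Rfk (r = 0.99), Rgl1 (0.987), Rab23 (0.985), Vezt (0.978) and Mapkapk5 (0.977). These are descriptions over 7 libraries that share animals and processing, with no test.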

How the data were processed

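The data are the deposited read counts of 14 libraries, whole numbers per gene that the authors did not normalize, per the file headers. FastQC, Trim Galore, STAR and featureCounts, and the builds GRCm38 and mm10, are named in the submitters' processing notes without versions or settings. The deposited sample sheet adds, per the file headers, the RNA integrity number, a quality score, and the percent GC of the reads. Other columns of the sheet, per the file headers, give the RNA concentration and the reads of the tau construct. The table's 14 count columns were mapped to samples and 0 other columns held sample values.

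Clock genes were matched by symbol, and 1 of the other listed genes (Arntl) by its current symbol. The clock genes, the gene lists, the comparisons and the naming rule were chosen with earlier results of these data known. In the other loop genes and the noradrenergic markers, 1 gene each is not reported here. Besides all 10 clock genes, genes were named from the lists where they passed between library-number ranges, at most 8 per list, or had the list's smallest p where none passed, and the 5 genes most like the clock genes' mean by Pearson's r of log2 CPM (prior count 2).

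Tests used edgeR 4.0.16 in R 4.3.3 (quasi-likelihood F test, filterByExpr, TMM scaling, Benjamini-Hochberg over all genes tested, threshold 0.05), with DESeq2 1.42.0 and voom in limma 3.58.1 as alternatives. An SE is the log2 fold change over the square root of F. Counts were simulated with 200 genes, drawn from those with a mean count above 200, changed by 2 on the log2 scale. Between fractions edgeR recovered 98.5% over 19100 genes (3.9% of its calls false). It recovered 100% between ranges in pre-IP over 19458 genes (11.9% false) and 92.5% between treatments in IP over 18738 genes (5.61% false). Between treatments in pre-IP it recovered 100% over 18833 genes (7.41% false). The false share between ranges in pre-IP, the comparison that called Clock, was above the threshold of 0.05. The clock gene differences were smaller than the simulated ones, so the recovered shares do not give the power to find them. Between treatments in the deposited IP libraries, the noradrenergic markers with the largest and smallest differences, Dbh (4.36) and Slc18a2 (2.81), did not pass (edgeR adjusted p 0.318 each). The deviations of an animal's IP and pre-IP libraries from their group means correlated at 0.148 to 0.385 in the 7 animals, and the letter in the labels pairs the fractions of an animal. The labels give 1 animal per letter, so the p-values of comparisons within a fraction measure the spread between animals. The main fits between fractions and of the interaction took the 14 libraries as independent and left out the pairing by animal. Their p-values therefore mix the spread within and between animals, and the fit with the animal as a replicate block is given as an alternative. Libraries of the same group differed by more than counting noise in all 18 pairs, with a chi-square of at least 24.6 per degree of freedom.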

Additional observations from a re-analysis of the deposited data

Results flagged for a closer look

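Within groups of 4 libraries, 20 groups of clock gene values were checked for a library far from the rest, by the gap to its nearest neighbour over the group's range, at the critical value of Dixon's test. Chance alone marks about 1 in 20 such groups. The lowest library was marked in 3. Per1 in tau pre-IP had 10.9 CPM in animal B, against 13.98 to 14.6 CPM in C, L and M, a ratio of 0.833. Per3 in tau IP had 1.74 CPM in B, against 8.76 to 9.72 CPM in the other 3 animals, a ratio of 0.88. Ciart in tau IP had 10.1 CPM in C, against 12.8 to 13.4 CPM in the others, a ratio of 0.842. Animal B's IP was the library with the lowest RNA concentration, 0.1 ng per microlitre, and its part in the Per3 value was not tested.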

How the results depend on the processing

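The 4 clock genes called between fractions stayed at 4 with the animal as a replicate block. They ran from 4 to 5 when each animal was left out, where 21.4% (without C) to 30% (without B) of all genes were called. EYFP animals alone gave 3, against 6.38% of all genes, and tau animals alone gave 4, against 20.7%. With the replicate block the clock genes at an unadjusted p under 0.05 between fractions went from 5 to 7 (from 4 to 6 lower in IP) and the genes called from 29.9% to 28.2% of those tested. The block was run for this comparison and for the interaction, where it left 0 clock genes called. In the range comparison in pre-IP the single call became 2 with DESeq2, with limma voom, without a low-count filter and without a treatment term. The count was 0 with sex as covariate and in tau animals alone, and 0 to 1 when each animal was left out. It was 0 without B, C, H, I or M. The gene called without K was Nr1d2 and not Clock, and the gene called without L was Clock. The share of all genes called moved as well: against 2.98% it was 10.2% with DESeq2, 9.83% with limma voom, 6.31% without the filter, 4.71% without a treatment term, 0.448% with sex as covariate, 0.0622% in tau animals alone and 0.00503% (without I) to 6.1% (without L) when each animal was left out. The cause was not tested. Counts of 0 clock genes between treatments, in the interaction and between ranges in IP stayed at 0 in every setting run. Between treatments in IP, DESeq2 gave no adjusted p to 8 of the 10 clock genes. The share of all genes called there rose from 0% to 2.11% with DESeq2, 0.355% without the filter and 0.67% without M. In the interaction the same settings gave 0.254%, 0.192% and 0.277%. It reached 1.55% between ranges in IP and 0.136% between treatments in pre-IP, both without the filter.

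Of 812 single-gene values with an adjusted p, 761 kept direction and side of the threshold, 6 newly passed, 9 no longer passed and 36 turned sign, none of the last called; another 8, all between treatments in IP, had no adjusted p from DESeq2. With limma voom, Per1 was 0.10 between treatments in IP and 0.10 in the interaction, and Per3 0.11 in the interaction and -0.08 between ranges in IP. With sex as covariate Per1 was 0.03 between treatments in pre-IP, in EYFP animals alone Ciart was 0.01 between fractions, and between ranges in IP Per2 was -0.01 without a treatment term and -0.03 in tau animals alone. When each animal was left out, values between treatments in pre-IP ran from -0.06 to 0.08 for Per1, -0.32 to 0.04 for Nr1d2, -0.14 to 0.01 for Dbp, -0.07 to 0.06 for Tef and -0.12 to 0.20 for Clock; in IP, from -0.25 to 0.14 for Per1 and -0.09 to 0.19 for Clock. In the interaction they ran from -0.27 to 0.11 for Per1, -0.32 to 0.04 for Per3, -0.34 to 0.09 for Nr1d2 and -0.16 to 0.13 for Clock. Between ranges they ran in pre-IP from -0.04 to 0.50 for Per2, -0.01 to 0.19 for Dbp and -0.13 to 0.05 for Cry1, and in IP from -0.10 to 0.59 for Per1, -0.04 to 0.18 for Per2, -0.30 to 0.85 for Per3 and -0.01 to 0.16 for Nr1d2.

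Every clock gene was above the level of 3 counts in every library, and what sets the precision was not tested.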
